A study of Mus musculus with 3 samples.

Results

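The insulin-like growth factor (IGF) axis was followed through an in vitro Leydig cell differentiation of mouse testis cells. Its members here are 10 of the 24698 genes with a row in the merged count table: the ligands Igf1 and Igf2, the receptors Igf1r and Igf2r, and the binding proteins Igfbp2, Igfbp3, Igfbp4, Igfbp5, Igfbp6 and Igfbp7. They were chosen by name, with earlier results of these data known. Single-cell RNA was sequenced by Drop-seq, in which cells share droplets with barcoded beads and each captured RNA molecule is counted once by its unique molecular identifier (UMI). There was 1 library for each of days 4, 7 and 14 of culture. All 3 began with testis cells of adult C57BL/6 males aged 8 to 12 weeks, sorted as Sca1+/cKit- and plated on Matrigel at 100000 cells per well. Every well recovered for 18 h in serum and was expanded for 3 days with PDGFAA, PDGFBB and FGF2, each at 10 ng/ml, and the Hedgehog pathway agonist SAG at 0.5 µM. The differentiation medium that followed kept these factors and added 5 mM LiCl2 and 10 µM DAPT, an inhibitor of Notch signalling. Day 4 closed the expansion, so the days differ in medium as well as in time and in library, and these cannot be told apart. The gate can hold more than 1 interstitial cell type, and strain and genotype were the same on all days.

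IGF1 and IGF2 are secreted peptides that act mainly through the IGF1 receptor, a tyrosine kinase that signals through IRS proteins to the PI3K, AKT and mTOR pathway. The IGF2 receptor is also the cation-independent mannose 6-phosphate receptor, which clears IGF2 and carries lysosomal enzymes, and the binding proteins hold the ligands outside the cell until proteases such as PAPPA or HTRA1 cut them. In the testis, IGF1 is known to promote the maturation of Leydig cells and their steroid output.

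The libraries held 2980, 2171 and 973 cells on days 4, 7 and 14, with 12677110, 11627440 and 5324400 UMIs and a median of 2886.5, 3285 and 3272 UMIs per cell. The barcodes bear on every count of cells, since 46.3% of the 6124 cell barcodes shared the first 11 of their 12 bases with another barcode of the same library. Of the pairs within such a set, 94.1% fell in the same cell class. For any 2 barcodes of a library that share was 60.1%, 41.3% and 47.8% on days 4, 7 and 14. Whether such a set is 1 cell was not tested, so counts of cells are also given as counts of sets where few cells carry a result. No barcode was shared between libraries. The cells fell into 5 classes named from marker genes. They were differentiating myofibroblast-like cells (74.8% of day 4), extracellular matrix (ECM) myofibroblast-like cells (58.9% of day 7), differentiating Leydig-like cells (54.7% of day 14), Leydig-like cells (42.2% of day 14) and proliferating progenitor-like cells (597 on day 4, 477 on day 7 and 15 on day 14). A cluster of 391 cells led by Eln, Entpd2 and Mfap2, which encode elastin, an ectonucleotidase and a microfibril protein, stayed unnamed, as did 17 cells led by Slpi and Krt18. The Leydig label of the culture was checked against its markers, and the summed level of 10 Leydig cell markers was 461, 663 and 11460 CPM, the counts scaled to a total of 1000000 UMIs, on days 4, 7 and 14. Markers of other cell types were low but moved: the 9 macrophage markers summed to 11.2, 28.6 and 239 CPM by day (1 of the 9 at 0 on each day), the 6 germ cell markers to 116, 19.2 and 39.1 CPM, the 8 endothelial markers to 85.2, 117 and 23.3 CPM and the 6 Sertoli cell markers to 33.0, 36.0 and 16.2 CPM. Their part in the differences between days was not tested. The members were left out of the clustering, so their values by class were not used to draw the classes.

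With 1 library per day there is no replicate and no test of a difference between days or classes. Each level is a sum of UMIs over cells, in CPM, with an exact Poisson 95% interval, and each ratio has an exact binomial 95% interval, which cover counting error only. A ratio is called higher or lower when it passed 2-fold after 1 CPM was added to both levels. A day's level sums over all its cells, so a change in the mix of cells and a change in each cell cannot be told apart in it, and the levels by class are given for that reason. The UMIs come from the 3′ ends of transcripts, so levels are compared between days and classes for 1 gene and not between genes.

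Igf1, the main growth-promoting ligand of the axis, was detected widely in culture and was lower in the day 14 library. Its level was 923 CPM on day 4 (906 to 940), 750 CPM on day 7 (734 to 766) and 361 CPM on day 14 (345 to 378), from 11702, 8717 and 1923 UMIs. The day 14 level lay 2.56-fold below day 4 (2.44 to 2.68) and 2.08-fold below day 7 (1.98 to 2.18), whereas day 7 lay 1.23-fold below day 4. At least 1 Igf1 UMI was found in 81.7%, 79.1% and 55.9% of cells, and in 69.6%, 60.4% and 34.4% after each cell was thinned to 1500 UMIs, so the share of positive cells fell in the same order as the level. The median gene was itself 0.20 lower on the log2 scale on day 14 than on day 7. Taken relative to that median, the day 14 to day 7 difference of Igf1 was -0.85 on the log2 scale, short of 2-fold. Relative to the median shift of -0.14 from day 4 to day 14 it was still past 2-fold. Among 11 other settings the day 14 to day 7 difference passed 2-fold in 7, and the day 14 to day 4 difference in 11.

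Among the groups of at least 50 cells the Igf1 level was lowest in Leydig-like cells. The 15 proliferating progenitor-like cells of day 14 had 154 CPM (89.9 to 247), from 17 UMIs. Over all days that class held 1060 UMIs of the macrophage gene Lyz2 in 11 cells, and the macrophage markers summed highest on day 14. The part of macrophage RNA in these 15 cells was not tested, so their value is not read as one of progenitors. On day 14 the Igf1 level was 292 CPM in Leydig-like cells (274 to 311) and 497 CPM in differentiating Leydig-like cells (466 to 530). This 1.70-fold difference (1.55 to 1.86) did not pass 2-fold. Differentiating Leydig-like cells gave 49.1% of the day's Igf1 UMIs and 35.7% of all UMIs, whereas Leydig-like cells gave 49.2% of the Igf1 UMIs and 60.9% of all UMIs. The 34 differentiating Leydig-like cells of day 7 had 886 CPM, from 80 UMIs. In the other large groups the Igf1 level lay between 734 CPM in the ECM myofibroblast-like cells of day 7 and 979 CPM in the Eln-Entpd2-Mfap2 cluster of day 4, with 977 CPM in the differentiating myofibroblast-like cells of day 4. The intervals of those last 2 groups overlapped, as did those of the ECM myofibroblast-like and proliferating progenitor-like cells of day 7 (738 CPM). The Igf1 gene lies on chr10:87858265-87937042 of GRCm38 on the plus strand, where an antisense gene, Igf1os, overlaps it, and the counting is not stated to use strand.

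**Figure D1:**
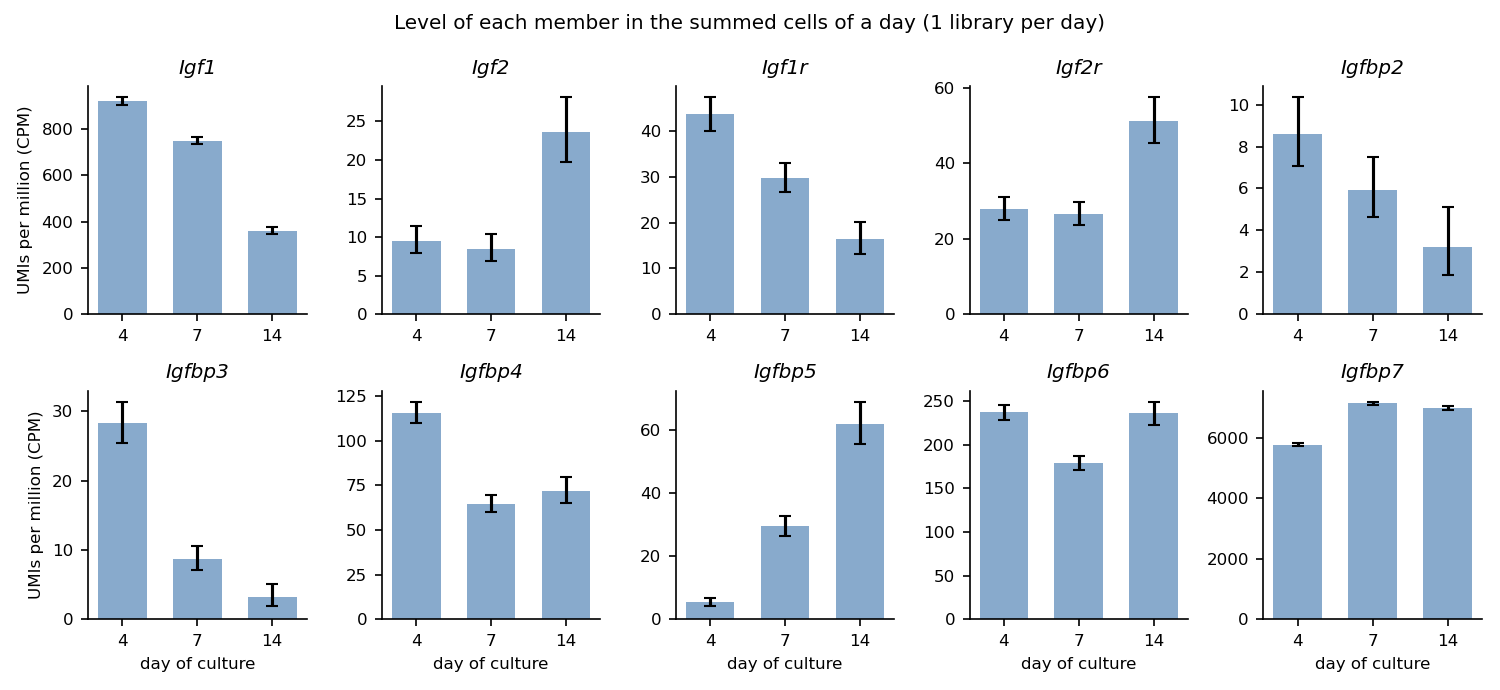
Level of each of the 10 genes on days 4, 7 and 14. The vertical axis is CPM on a linear scale that starts at 0 and differs between panels, bars are the level of 1 library each and lines are exact Poisson 95% intervals. Igf1, Igf1r and Igfbp3 stand lowest on day 14, while Igf2, Igf2r and Igfbp5 stand highest there.

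Igf2, the ligand best known for growth before birth and for imprinting, was scarce on every day and highest on day 14. Its level was 9.54 CPM on day 4 (7.92 to 11.4), 8.51 CPM on day 7 (6.92 to 10.4) and 23.7 CPM on day 14 (19.7 to 28.2), from 121, 99 and 126 UMIs. The day 14 level was 2.48-fold above day 4 (1.92 to 3.21) and 2.78-fold above day 7 (2.12 to 3.65), while days 4 and 7 overlapped in their intervals. Few cells carried it, 3.29%, 3.59% and 8.53% of cells by day, and no cell held more than 5 UMIs. The gene was thus spread thinly over cells rather than led by 1 cell.

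The Igf2 UMIs were unevenly shared between classes. On day 7 the Eln-Entpd2-Mfap2 cluster held 38.4% of them and 9.67% of all UMIs, with a level of 33.8 CPM (23.9 to 46.4) against 4.91 CPM (3.44 to 6.79) in ECM myofibroblast-like cells, 6.89-fold higher (4.25 to 11.2). On day 4 the same cluster had 58.6 CPM (34.7 to 92.6, 18 UMIs) against 7.98 CPM in differentiating myofibroblast-like cells, 7.33-fold higher (4.12 to 12.4). In each library the cluster stood above that day's main myofibroblast class, which was a different class on each day. On day 14 the Igf2 level was 38.9 CPM in differentiating Leydig-like cells (30.5 to 48.8) and 15.7 CPM in Leydig-like cells (11.7 to 20.7), 2.47-fold lower in the latter (1.71 to 3.60). That difference was -0.65 on the log2 scale, short of 2-fold, when each cell took the class of its highest marker list score. The 34 differentiating Leydig-like cells of day 7 held 9 Igf2 UMIs in 6 cells, or 99.6 CPM (45.6 to 189). Igf2 lies on chr7:142650766-142666816 on the minus strand, with Mir483 and Gm49394 inside it on the same strand, whose reads could be counted with it.

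The 2 receptors moved apart. Igf1r, the signalling receptor, was 43.7 CPM on day 4 (40.1 to 47.5), 29.8 CPM on day 7 (26.8 to 33.2) and 16.3 CPM on day 14 (13.1 to 20.2), so that no interval overlapped another. The day 14 level was 2.67-fold below day 4 (2.13 to 3.39) and 1.83-fold below day 7 (1.44 to 2.34). Igf2r, the clearing and lysosomal sorting receptor, was level on days 4 and 7, at 27.8 CPM (25.0 to 30.9) and 26.6 CPM (23.7 to 29.7). On day 14 Igf2r was 51.1 CPM (45.2 to 57.5), 1.83-fold above day 4 (1.56 to 2.15) and 1.92-fold above day 7 (1.63 to 2.27), short of 2-fold in both cases. Within a day, the number of Igf2r UMIs per Igf1r UMI was 0.637 on day 4 (0.556 to 0.730), 0.891 on day 7 (0.761 to 1.04) and 3.13 on day 14 (2.45 to 4.03). This ratio of UMIs is not corrected for how well each transcript is captured, so only its course over the days can be read.

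Among the groups of at least 50 cells, Igf1r was lowest in Leydig-like cells and Igf2r was alike in both day 14 classes. The Igf1r level was 9.57 CPM in Leydig-like cells (6.50 to 13.6, 31 UMIs) and 26.8 CPM in differentiating Leydig-like cells (19.96 to 35.3, 51 UMIs) of day 14, 2.80-fold lower in the former (1.76 to 4.53). The highest Igf1r level of a large group was 48.0 CPM, in the differentiating myofibroblast-like cells of day 4 (43.7 to 52.7), and the ECM myofibroblast-like cells of day 7 had 31.1 CPM (27.2 to 35.4). The Igf2r level was 49.1 CPM in Leydig-like (41.7 to 57.3) and 52.6 CPM in differentiating Leydig-like cells (42.8 to 63.9), a ratio of 1.07 whose interval, 0.826 to 1.38, spans equality. All other groups of at least 50 cells lay between 22.8 and 33.8 CPM for Igf2r. The Igf2r UMIs per Igf1r UMI were 5.13 in Leydig-like (3.47 to 7.80) and 1.96 in differentiating Leydig-like cells (1.39 to 2.80) on day 14, against 0.833 in the ECM myofibroblast-like cells of day 7 and 0.591 in the differentiating myofibroblast-like cells of day 4. The Leydig-like cells were also the deepest group, with a median of 5625 UMIs against 2193.5 in differentiating Leydig-like cells. When each cell counted equally or was thinned to 1500 UMIs, the Igf1r difference between them was -0.943 or -0.999 on the log2 scale, just short of 2-fold. Igf2r (chr17:12682406-12769664, minus strand) overlaps the antisense RNA Airn, whose reads could be counted with it, and Igf1r lies on chr7:67952827-68233668 on the plus strand.

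Igfbp3 and Igfbp5 went opposite ways and made the widest differences of the axis. The proteins are relatives that bind IGFs in the circulation and in the matrix. Their promoters, from 250 bases before to 50 bases after the start in RefSeq on GRCm38.p6, are shown because these genes diverged most and because their CpG content differs. The CpG dinucleotides are in capitals. Each sequence runs 5′ to 3′ on the gene's own strand, which is the minus strand of the chromosome for both. The Igfbp3 window is chr11:7213874-7214173 and the Igfbp5 window chr1:72874816-72875115.
Igfbp3: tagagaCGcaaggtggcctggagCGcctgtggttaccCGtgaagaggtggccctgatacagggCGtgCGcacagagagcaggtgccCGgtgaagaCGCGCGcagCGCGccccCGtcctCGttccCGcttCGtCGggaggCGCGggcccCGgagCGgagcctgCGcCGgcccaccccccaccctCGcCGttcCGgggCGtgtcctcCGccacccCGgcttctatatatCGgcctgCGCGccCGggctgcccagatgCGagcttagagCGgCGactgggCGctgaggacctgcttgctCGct
Igfbp5: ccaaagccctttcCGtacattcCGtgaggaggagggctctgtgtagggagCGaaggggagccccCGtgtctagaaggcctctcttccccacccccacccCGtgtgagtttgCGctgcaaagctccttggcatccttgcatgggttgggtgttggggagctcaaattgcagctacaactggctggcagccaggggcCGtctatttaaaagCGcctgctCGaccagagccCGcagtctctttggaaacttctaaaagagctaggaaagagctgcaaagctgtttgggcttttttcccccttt
The Igfbp3 window holds 37 CpG dinucleotides and is 71.7% G or C, and 5.58% of the 32851 promoter windows in the same table hold at least as many CpGs. The Igfbp5 window holds 10 and is 56.3% G or C, and 43.5% of all windows hold at least as many, beside a median of 7 over all windows. The letters GGAATG, searched on both strands, occur once in the Igfbp5 window and in 14.7% of all windows. These are descriptions of the reference sequence, and no measurement of binding or methylation was made here. All 10 members had at least 1 window in the table.

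Igfbp3 was lower on days 7 and 14 than on day 4. Its level was 28.3 CPM on day 4 (25.5 to 31.4), 8.69 CPM on day 7 (7.08 to 10.6) and 3.19 CPM on day 14 (1.86 to 5.11), from 359, 101 and 17 UMIs. Day 7 was 3.26-fold below day 4 (2.61 to 4.11), day 14 was 2.72-fold below day 7 (1.62 to 4.85) and day 14 was 8.87-fold below day 4 (5.46 to 15.4). The difference between days 14 and 7 was -0.53 on the log2 scale after thinning, -0.85 with equal weight per cell and -0.99 without the 5% deepest cells, each short of 2-fold. The share of cells with the gene went from 5.40% to 2.76% and 1.54%. Proliferating progenitor-like cells were numerous on both days 4 and 7. Their Igfbp3 level was 21.6 and 6.70 CPM, 3.22-fold lower on day 7 (1.89 to 5.79). In the Eln-Entpd2-Mfap2 cluster, with 97 and 282 cells, the Igfbp3 level was at least 2-fold higher on day 7 than on day 4. That ratio rested on 32 against 4 UMIs and its interval spanned equality, so no direction is read there. The differentiating myofibroblast-like cells had 29.3 CPM on day 4 (26.0 to 33.1) and 39.9 CPM on day 7. The day 7 value came from 12 UMIs, 6 of them in 1 cell. The day's difference was thus not seen in that class, though on few UMIs. On day 7 the level was 4.63 CPM in ECM myofibroblast-like cells (3.21 to 6.48), and 6.14-fold higher in the Eln-Entpd2-Mfap2 cluster (28.4 CPM, 3.67 to 10.3). On day 14 9 UMIs came from differentiating Leydig-like and 6 from Leydig-like cells, too few to order them (ratio interval 0.812 to 8.72). The 14 day 4 cells of the Slpi-Krt18 cluster held 16 Igfbp3 UMIs in 7 cells, or 403 CPM (231 to 655).

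Igfbp5 was higher on days 7 and 14 than on day 4, carried by few cells. Its level was 5.29 CPM on day 4 (4.10 to 6.71), 29.5 CPM on day 7 (26.5 to 32.8) and 62.0 CPM on day 14 (55.5 to 69.0), from 67, 343 and 330 UMIs. Day 7 was 5.58-fold above day 4 (4.29 to 7.37), day 14 was 2.10-fold above day 7 (1.80 to 2.45) and day 14 was 11.7-fold above day 4 (8.99 to 15.5). The share of cells with at least 1 UMI was 0.839%, 3.78% and 7.61%, and after thinning to 1500 UMIs it was 0.539%, 2.12% and 4.53%. Each positive cell held a mean of 2.68, 4.18 and 4.46 UMIs, from 25, 82 and 74 positive cells. At least 50% of the UMIs lay in 4, 7 and 13 cells, or in 4, 7 and 9 barcode sets when UMIs were summed by set. The day 14 to day 7 ratio did not pass 2-fold when the 5% deepest cells of each library were left out (0.83 on the log2 scale). The UMIs of Igfbp5 per UMI of Igfbp3 went from 0.187 on day 4 to 3.40 on day 7 and 19.4 on day 14 (11.9 to 33.7).

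The cells rich in Igfbp5, those with at least 5 UMIs, numbered 3, 16 and 27 by day and held 46.3%, 72.0% and 74.8% of the day's Igfbp5 UMIs. Of the 27 on day 14, 16 were Leydig-like cells in 16 separate sets and 11 were differentiating Leydig-like cells in 6 sets. On day 7 the 16 rich cells were 6 cells of the Eln-Entpd2-Mfap2 cluster, 4 proliferating progenitor-like, 3 Leydig-like, 2 differentiating Leydig-like and 1 ECM myofibroblast-like. Igfbp5 was therefore found in most classes but in a minority of each one's cells. No class is known to lack these genes. As a gauge of free RNA, the sperm protamine gene Prm1, which belongs to spermatids, had a UMI in 3.96% of ECM myofibroblast-like, 4.07% of differentiating myofibroblast-like, 6.87% of differentiating Leydig-like and 11.5% of Leydig-like cells, with median depths of 3314, 2813, 2156 and 5532 UMIs. The shares of cells with Igf2, Igfbp3 or Igfbp5 by day are of the same order as these and are not read as expression by themselves. In CPM the level of Prm1 was 7.41, 10.6, 21.0 and 16.0 in the same order of classes. The levels of Igf2 and Igfbp3 also lie in that range in several classes. The Eln-Entpd2-Mfap2 cluster had Prm1 in 3.07% of cells, at 8.00 CPM. Proliferating progenitor-like cells had it in 5.60% of cells, at 108 CPM from 618 UMIs in 61 cells. The part of free RNA in the differences of Igf2, Igfbp3 and Igfbp5 was not tested.

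**Figure D2:**
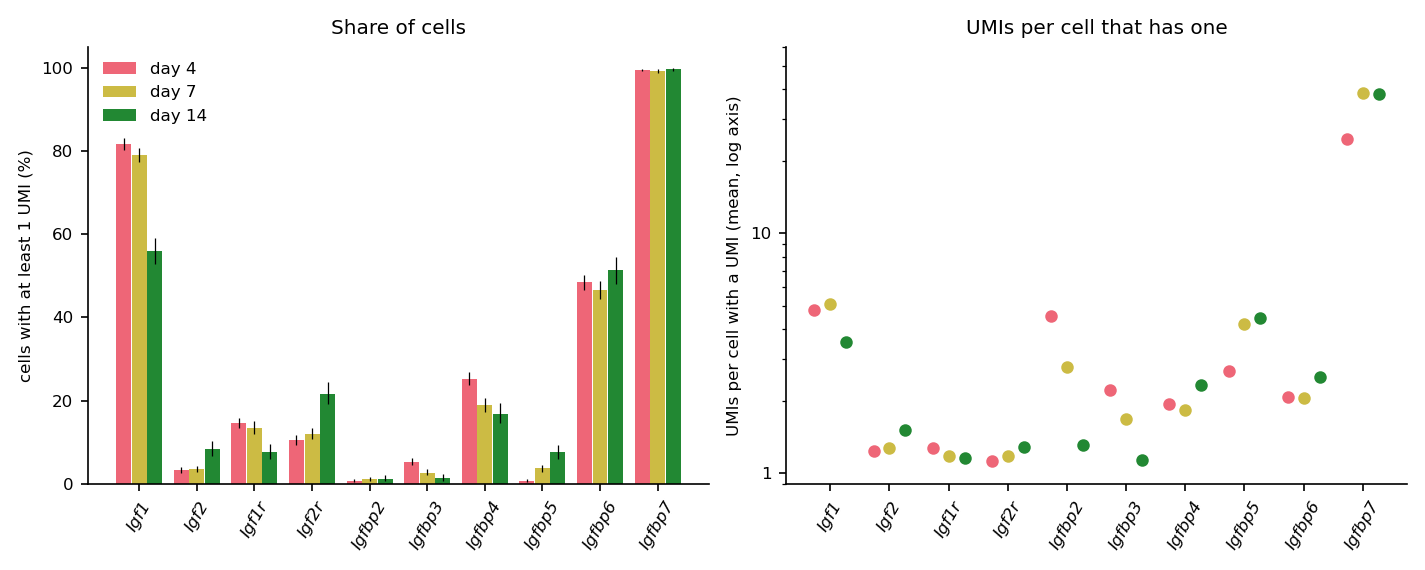
Cells with the gene on days 4, 7 and 14. In the left panel bars give the share of cells with at least 1 UMI in percent with exact binomial 95% intervals, and in the right panel points give the mean UMIs per cell with the gene on a log axis. Igfbp5 is found in 0.839%, 3.78% and 7.61% of cells, while Igfbp7 is found in 99.4%, 99.2% and 99.7%.

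Among the groups of at least 50 cells, Igfbp5 was lowest in the myofibroblast-like cells. It was 2.70 CPM in the differentiating ones of day 4 (1.75 to 3.98). On day 7 the ECM myofibroblast-like cells held 63.1% of all UMIs and 7.00% of the Igfbp5 UMIs, a level of 3.27 CPM (2.10 to 4.87) from 24 UMIs in 13 cells. The Eln-Entpd2-Mfap2 cluster of that day had 105 CPM (86.8 to 126) in 37 cells, 13.1% of the cluster, which was 32.1-fold higher (20.5 to 52.0). Proliferating progenitor-like cells had 29.8 CPM on day 7 (23.6 to 37.1), 9.11-fold above ECM myofibroblast-like cells (5.71 to 15.0) and 3.62-fold above the same class on day 4 (2.27 to 5.97). The few Leydig-type cells of day 7 gave the highest levels, 786 CPM in 34 differentiating Leydig-like cells (614 to 991) and 616 CPM in 16 Leydig-like cells (454 to 817). These rested on 4 and 5 positive cells, and 38 of the 71 UMIs of the former were in 1 cell. On day 14 the level was 84.6 CPM in differentiating Leydig-like (72.1 to 98.8) and 51.8 CPM in Leydig-like cells (44.3 to 60.3), 1.63-fold lower in the latter (1.31 to 2.04) and not past 2-fold. The 52.1 CPM of the Eln-Entpd2-Mfap2 cluster on day 4 came from 1 cell with 16 UMIs. On day 4 proliferating progenitor-like cells stood 3.05-fold above differentiating myofibroblast-like cells (1.67 to 5.57), a direction that turned to -0.29 on the log2 scale without the 5% deepest cells. In the proliferating class, pooled over days, 9 macrophage markers summed to 219 CPM and 6 germ cell markers to 229 CPM. The ECM myofibroblast-like cells had 8.63 and 17.9 CPM. The macrophage gene Lyz2 had 1060 UMIs in 11 of the 1089 proliferating cells. Over all cells of a day, the macrophage markers were highest on day 14, at 239 CPM, against 11.2 and 28.6 CPM on days 4 and 7. The germ cell markers were highest on day 4, at 116 CPM, against 19.2 and 39.1 CPM on days 7 and 14. The split of these markers by day within the class is not given. Their part in the results for that class was not tested.

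Igfbp2 and Igfbp5 are neighbours on chromosome 1, at chr1:72824503-72852474 on the plus strand and chr1:72857932-72874884 on the minus strand, with 5457 bases and no annotated gene between them. Igfbp2, a binding protein found in the circulation, was the least detected member. Its level was 8.60 CPM on day 4 (7.06 to 10.4), 5.93 CPM on day 7 (4.62 to 7.51) and 3.19 CPM on day 14 (1.86 to 5.11), in 24, 25 and 13 cells. The day 14 level was 2.69-fold below day 4 (1.61 to 4.79), and this was short of 2-fold, at -0.93 on the log2 scale, without the richest cell of each library. A single proliferating progenitor-like cell held 43 of the 109 Igfbp2 UMIs of day 4. The densest source was the Slpi-Krt18 cluster, with 27 UMIs in 5 of its 14 day 4 cells, or 681 CPM (448 to 990), where Igfbp2 was among the leading genes. That cluster also carried Upk3b, an epithelial and mesothelial gene, with a UMI in 11 of its 17 cells, and the keratin Krt18 in 15. The few Leydig-like cells of days 4 and 7 held 17 UMIs among 7 cells, 13 of them in 1 cell, and 10 UMIs among 16 cells, 7 of them in 1 cell, and those of day 14 had 3.09 CPM. In the 34 differentiating Leydig-like cells of day 7 no UMI was seen, which allows up to 33.2 CPM and so no statement against the 6.54 CPM of ECM myofibroblast-like cells. Igfbp2 and Igfbp5 thus showed opposite differences from day 4 to day 14 although they are adjacent.

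Igfbp4, the binding protein that PAPPA cuts, was marked out by class more than by day. Its level was 116 CPM on day 4 (110 to 122), 64.8 CPM on day 7 (60.2 to 69.6) and 71.9 CPM on day 14 (64.9 to 79.5). No day differed from another by 2-fold, the widest ratio being 1.79 between days 4 and 7 (1.64 to 1.96). In the Eln-Entpd2-Mfap2 cluster the Igfbp4 level was 299 CPM on day 4 (241 to 367) and 231 CPM on day 7 (204 to 261), with a UMI in 46.4% and 45.0% of its cells. That was 2.63-fold above differentiating myofibroblast-like cells on day 4 (2.10 to 3.26) and 6.76-fold above ECM myofibroblast-like cells on day 7 (5.66 to 8.07). The ECM myofibroblast-like cells had 34.2 CPM (30.1 to 38.7) and gave 33.3% of the day's Igfbp4 UMIs against 63.1% of all its UMIs. On day 14 the level was 135 CPM in differentiating Leydig-like (119 to 152) and 35.8 CPM in Leydig-like cells (29.6 to 42.9), 3.76-fold lower in the latter (3.01 to 4.72). One Leydig-like cell held 41 of that class's 116 UMIs. The 34 differentiating Leydig-like cells of day 7 had 332 CPM (224 to 474), 9.71-fold above ECM myofibroblast-like cells (6.41 to 14.2). Proliferating progenitor-like cells of day 7 (70.8 CPM) were 2.07-fold above ECM myofibroblast-like cells (1.70 to 2.51), an excess that was 0.97 on the log2 scale, short of 2-fold, when barcodes sharing 11 bases were summed.

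**Figure D3:**
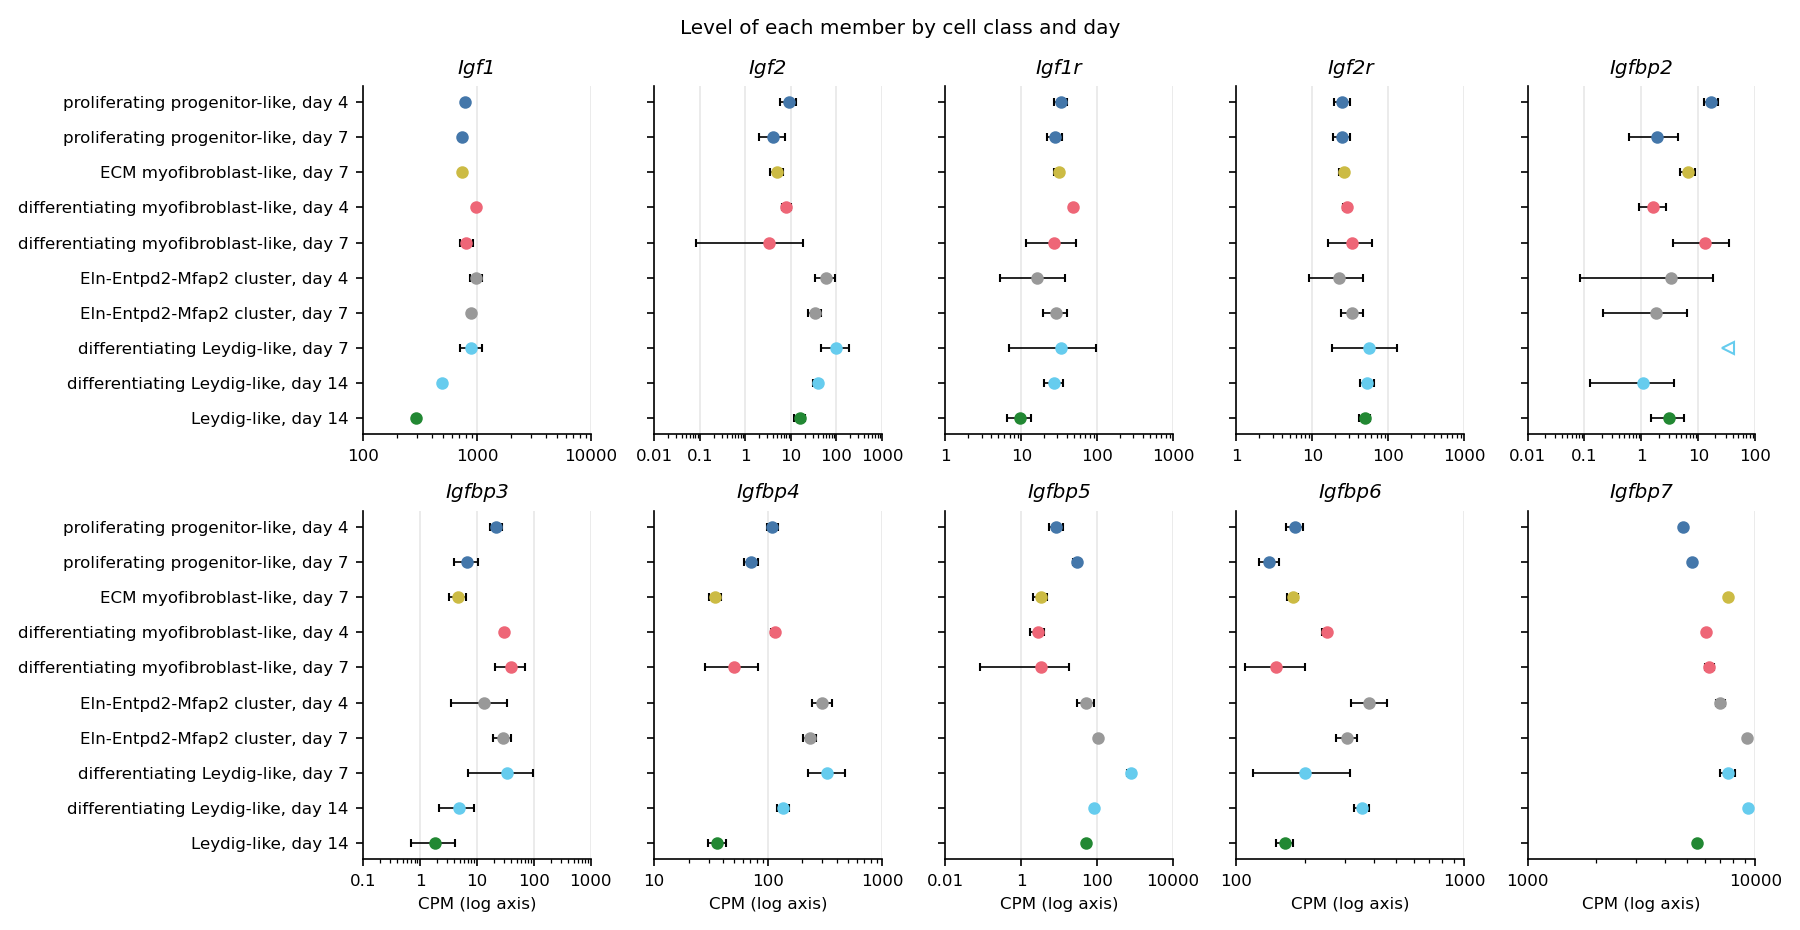
Level of each gene by cell class and day. The horizontal axis is CPM on a log scale, points are the sum over the cells of a class on 1 day and lines are exact Poisson 95% intervals, with an open triangle for the limit that a count of 0 allows. On day 7 Igfbp4 and Igfbp5 are lower in ECM myofibroblast-like cells than in the Eln-Entpd2-Mfap2 cluster, and Igf1, Igf1r and Igfbp4 are lower in Leydig-like than in differentiating Leydig-like cells of day 14.

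Igfbp6 and Igfbp7 stayed within 2-fold over the days, though their day 7 intervals lay apart from those of day 4. Igfbp6, a binding protein that prefers IGF2, was 237 CPM on day 4 (229 to 246), 179 CPM on day 7 (172 to 187) and 236 CPM on day 14 (223 to 250), and days 4 and 14 could not be told apart (ratio 0.995, 0.931 to 1.06). On day 14 it was 355 CPM in differentiating Leydig-like (329 to 383) and 163 CPM in Leydig-like cells (149 to 177), 2.18-fold lower in the latter (1.94 to 2.45). After thinning to 1500 UMIs that difference was -0.74 on the log2 scale, short of 2-fold. Igfbp7, a related protein of vessel and stromal matrix that binds IGFs weakly, was present in 99.4%, 99.2% and 99.7% of cells. Its level was 5777 CPM on day 4 (5735 to 5819), 7155 CPM on day 7 (7106 to 7204) and 6985 CPM on day 14 (6914 to 7056). Over the groups of at least 50 cells it ranged from 4812 CPM in the proliferating progenitor-like cells of day 4 to 9281 CPM in the differentiating Leydig-like cells of day 14 (9145 to 9419). Leydig-like cells of day 14 had 5526 CPM (5445 to 5607), 1.68-fold below the differentiating ones (1.65 to 1.72), yet the mean number of UMIs per positive cell was 43.6 against 33.2. The level in CPM and the content per cell thus ordered these classes in opposite ways, in cells whose median depths differed.

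Counted together, 6 of the 10 members passed 2-fold between days 4 and 14, in both directions. Of the 10, Igf2 and Igfbp5 were at least 2-fold higher on day 14 than on day 4 and Igf1, Igf1r, Igfbp2 and Igfbp3 at least 2-fold lower, while 26.3% of the 8190 genes with a mean of at least 10 CPM passed 2-fold in either direction (10.9% higher and 15.3% lower). Igfbp2 has a mean below 10 CPM and lies outside that background, and of the other 9 members 2 were higher and 3 lower. From day 4 to day 7, Igfbp5 was higher and Igfbp3 lower, where 1.76% of all genes tested were higher and 1.92% lower (3.68% in all). From day 7 to day 14, Igf2 and Igfbp5 were higher and Igf1 and Igfbp3 lower, where 8.28% of all genes were higher and 13.9% lower (22.1% in all). The median log2 ratio of the 9 members with a mean of at least 10 CPM was -0.30, 0.15 and -0.01 for day 7 against 4, day 14 against 7 and day 14 against 4, beside 0.07, -0.20 and -0.14 over all genes tested. Members with opposite directions offset each other in these medians.

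Within the day 14 library the members that passed 2-fold all went the same way. There 5 of 10 members (Igf2, Igf1r, Igfbp3, Igfbp4 and Igfbp6) were at least 2-fold lower in Leydig-like than in differentiating Leydig-like cells and none at least 2-fold higher, while 6.12% of all genes tested were lower and 2.8% higher (8.91% in all). Of these, Igfbp3 rests on 6 against 9 UMIs, its interval spans equality and it passed 2-fold in 6 of 16 other settings, so it counts by its ratio alone. The ratio of Igfbp2 was 2.94 (0.625 to 27.5) from 10 against 2 UMIs, and it did not pass once 1 CPM was added. The median log2 ratio of the 9 members was -1.01, which is the value of Igfbp3 itself, beside -0.06 over all genes.

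In the Eln-Entpd2-Mfap2 cluster, by contrast, most members that passed were higher. On day 7, Igf2, Igfbp3, Igfbp4 and Igfbp5 were at least 2-fold higher there than in ECM myofibroblast-like cells and Igfbp2, on 2 UMIs, lower, where 5.12% of all genes tested were higher and 4.36% lower (9.47% in all). In that comparison the ratios of Igf1 (1.22), Igfbp7 (1.21) and Igf1r (0.915) lay close to equality. On day 4 the cluster had Igf2, Igfbp4 and Igfbp5 higher than differentiating myofibroblast-like cells and Igf1r, on 5 UMIs, and Igfbp3, on 4 UMIs, lower, where 8.82% of all genes were higher and 12.8% lower (21.6% in all). Igf2 and Igfbp4 thus passed 2-fold in the cluster in both libraries, and Igfbp5 did so on day 4 through 1 cell. Within the cluster Igfbp3 was the 1 member at least 2-fold higher on day 7 than on day 4, where 10.7% of all genes were higher and 4.86% lower (15.6% in all). That ratio rested on 4 UMIs on day 4 and its interval spanned equality.

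The 34 differentiating Leydig-like cells of day 7 had 5 members higher than ECM myofibroblast-like cells (Igf2, Igf2r, Igfbp3, Igfbp4 and Igfbp5), where 12.1% of all genes were higher and 23.9% lower (36% in all). Igf2r and Igfbp3 rest on 5 and 3 UMIs there, and Igfbp2, at 0 UMIs, allows no fold. Proliferating progenitor-like cells of day 7 had Igfbp4 and Igfbp5 higher and Igfbp2 lower than ECM myofibroblast-like cells, where 4.63% of all genes were higher and 1.26% lower (5.89% in all). That Igfbp2 difference sets 5 UMIs against 48, of which 33 were in 3 ECM myofibroblast-like cells, and it turned from -1.40 to 0.67 on the log2 scale when each cell counted equally. On day 4 Igfbp2 and Igfbp5 were higher in proliferating progenitor-like than in differentiating myofibroblast-like cells, where 4.02% of all genes were higher and 1.04% lower (5.05% in all). The Igfbp2 difference of day 4 rested on 1 cell and was 0.42 on the log2 scale without it. Within proliferating progenitor-like cells, Igfbp5 was higher and Igfbp2 and Igfbp3 lower on day 7 than on day 4, where 2.22% of all genes were higher and 2.1% lower (4.32% in all). The Igfbp2 difference sets 5 UMIs against 49, of which 43 were in that same cell.

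The rest of the pathway was read from a list of 39 genes for IGF proteases and their inhibitors, insulin receptor, IRS adaptors, PI3K, AKT and mTOR components and IGF2 RNA-binding proteins. Of these 34 had a row and 22 a mean of at least 10 CPM, and of the 22, 3 were at least 2-fold higher on day 14 than on day 4, 3 lower and 16 neither, against the 26.3% of all genes given above. Htra1, a serine protease that cuts several IGF binding proteins, was 327, 618 and 2937 CPM on days 4, 7 and 14, 8.97-fold higher on day 14 than on day 4 (8.67 to 9.29), with a UMI in 97.1% of day 14 cells. It was 3358 CPM in Leydig-like and 2425 CPM in differentiating Leydig-like cells on day 14, and 1461 CPM in the differentiating Leydig-like cells of day 7 against 622 CPM in ECM myofibroblast-like cells. Stc2, an inhibitor of PAPPA, was 25.9, 10.3 and 73.4 CPM, 2.84-fold higher on day 14 than on day 4 (2.44 to 3.30), and 2.49-fold higher in Leydig-like than in differentiating Leydig-like cells (1.93 to 3.25). Insr, the insulin receptor, was 8.05, 13.2 and 19.5 CPM, 2.43-fold higher (1.83 to 3.22). Pappa, the protease for IGFBP4, went the other way at 26.1, 34.3 and 3.94 CPM, 6.62-fold lower on day 14 than on day 4 (4.26 to 10.8), with only 2 UMIs in the Leydig-like cells of day 14. Pappa and Stc2 therefore differed in opposite directions across the same libraries. Of the 5 proteases and inhibitors on the list, 3 (Htra1, Pappa2 and Stc2) were at least 2-fold higher on day 14 than on day 4. The other 2 (Pappa and Stc1) were lower, so proteases and inhibitors stood on both sides. Pappa2 and Stc1 have means below 10 CPM and lie outside the background. Of the 3 others 2 were higher and 1 lower, where 10.9% of all genes tested were higher and 15.3% lower.

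Other pathway genes differed between days as well. Igf2bp2, an RNA-binding protein of Igf2 transcripts, was 17.4, 14.6 and 7.51 CPM, 2.32-fold lower on day 14 than on day 4 (1.65 to 3.34). Grb10, an adaptor that restrains insulin and IGF receptors, was 52.5, 70.3 and 27.6 CPM, 2.55-fold lower on day 14 than on day 7 (2.14 to 3.06). Below the mean of 10 CPM, the receptor substrates went apart: Irs2 was 12.2, 3.10 and 1.502 CPM, 8.14-fold lower on day 14 than on day 4 (4.03 to 19.2), and Irs1 was 2.76, 4.47 and 7.32 CPM, 2.65-fold higher (1.64 to 4.31). Pappa2, a protease of IGF binding proteins, was 0.39, 0.17 and 4.32 CPM, 10.95-fold higher on day 14 than on day 4 (4.07 to 36.9), and Stc1, a relative of Stc2, was 3.79, 1.204 and 0.188 CPM, with 1 UMI on day 14. H19, the imprinted neighbour of Igf2, is named after its values were seen: it was 4.32 CPM on day 14, all 23 of its UMIs in 1 cell. Igfbp1, Igfbpl1, Igfals, Ins1 and Ins2 have no row here and Irs4 had no UMI.

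**Figure D4:**
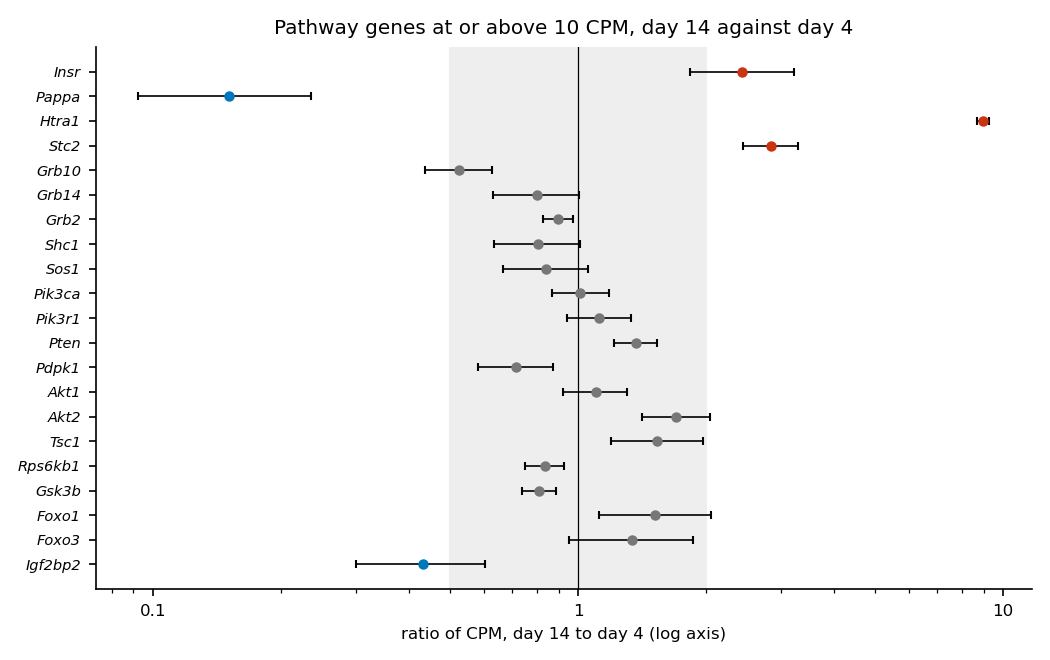
Ratio of the day 14 level to the day 4 level for other pathway genes with a mean of at least 10 CPM. The horizontal axis is the ratio of CPM on a log scale, lines are exact 95% intervals and the grey band lies within 2-fold. Htra1 (8.97-fold) lies farthest to the right and Pappa (6.62-fold lower) farthest to the left.

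The genes whose levels ran most like each member were looked up over the 9 groups of class and day with at least 50 cells, by Pearson's r of log2(CPM + 10) among 4786 genes with at least 50 CPM in some group. Igf1 ran most like Ddr2, a collagen receptor (r = 0.977), which went from 52.8 CPM in Leydig-like cells of day 14 to 111 CPM in the Eln-Entpd2-Mfap2 cluster of day 4, followed by Epb4.1l2 (0.975) and the endocytic adaptor Dab2 (0.971). Igf2 ran most like Eif3h (0.980), Smarca2 (0.974) and Deptor, an mTOR-binding protein (0.973), although Eif3h spanned only 317 to 381 CPM. Igf2r ran most like Tmem108 (0.967), the glutathione transferase Gstp1 (0.960) and P4hb, a protein disulphide isomerase (0.959). Igfbp4 ran most like Rps21 (0.951), Lrrc17 (0.947) and Cygb, or cytoglobin (0.942). Igfbp5 ran most like Glod4 (0.968), Hoxd10 (0.932) and Vegfb (0.925), Igfbp6 like Mid1ip1 (0.981) and Rnase4 (0.950), and Igfbp7 like App (0.947), Bace2 (0.938) and Bmper (0.935). App, the amyloid precursor, went from 984 CPM in proliferating progenitor-like cells of day 4 to 2070 CPM in differentiating Leydig-like cells of day 14. The 9 groups come from 3 libraries and share their depth, so these values describe likeness over few points. Igf1r, Igfbp2 and Igfbp3 did not reach 50 CPM in any of these groups and were not ranked.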

How the data were processed

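Drop-seq libraries of days 4, 7 and 14 were analysed, 1 per day. The authors aligned reads to GRCm38 with STAR and deposited raw UMI counts per gene and cell barcode, without normalization. The merged table of filtered cells (at least 500 genes, at most 10% mitochondrial UMIs) was used. Another 495 of its columns match no sample described here and were not used. No count differed between it and the tables per day, and genes were matched by symbol.

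Cells were scaled to 10000 UMIs and clustered in Seurat 5.3.0 (R 4.3.3) on 2000 variable genes without the members and the listed pathway genes (49 in all), 20 principal components, 20 neighbours and resolution 0.8, giving 12 clusters. A marker list could name a cluster if at least 3 of its markers had 10 UMIs, were in 10% of the cluster's cells and reached 1.5 times the level of other cells after 10 CPM was added. Among such lists the one with the highest median log2 ratio gave the name, if that was above 0, unless another list had more markers among the 10 leading genes or the cluster was shallow with no marker among them. These thresholds were set after the clusters were seen, the markers of 6 of the 10 lists were picked by the study from these libraries, and rebuilt names can differ from those of the study. Doublets were not removed: Scrublet marked 3 cells of 6124, too few to rely on, and an alternative left out the 6% highest scores per library.

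Levels are summed UMIs in CPM (Python 3.11.15, SciPy 1.17.1), with exact Poisson intervals. Shares have exact Clopper-Pearson intervals and ratios exact conditional binomial intervals, at 95%, and a count of 0 allows 3 counts. Folds of 2 were read after adding 1 CPM. The background is the 8190 genes with a mean of at least 10 CPM over the days. Thinning to 1500 UMIs left out 753, 429 and 179 cells. The members, lists and comparisons were chosen with earlier results of these data known. Named are the members, pathway genes at least 2-fold different between days, and the 3 most alike genes of each member with 50 CPM in a group, except that some genes are not reported here. Positions are from GENCODE M21 and promoters from RefSeq on GRCm38.p6. The alternatives changed pseudocount, fold, weights, depth, filters, doublets, barcodes and clustering.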

Additional observations from a re-analysis of the deposited data

Results flagged for a closer look

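Igfbp2 differed in opposite directions on days 4 and 7 in the comparison of differentiating myofibroblast-like with proliferating progenitor-like cells. The ratio of levels was 0.0963 on day 4 (0.0501 to 0.175, from 15 and 49 UMIs) and 7.15 on day 7 (1.42 to 33.2, from 4 and 5 UMIs). Seen the other way, the day 7 to day 4 ratio was 8.22 in differentiating myofibroblast-like cells (1.99 to 25.8) and 0.111 in proliferating progenitor-like cells (0.0344 to 0.277). The difference between the ratios was not tested, since each rests on 1 library per day. On day 4, 43 of the 49 UMIs of the proliferating class were in 1 cell, and the 4 UMIs of day 7 were in 4 cells of 1 barcode set. These were the pairs whose ratio intervals lay on opposite sides of equality among 60 member and contrast pairs in 6 contrasts. By the 2-fold rule alone, Igfbp3 also went opposite ways from day 4 to day 7. It was lower on day 7 in proliferating progenitor-like cells and higher in the Eln-Entpd2-Mfap2 cluster, where day 4 held 4 UMIs and the ratio interval spanned equality.

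Barcodes of the tables per day that the merged table leaves out also carried the members. There were 320, 229 and 327 such barcodes on days 4, 7 and 14, with a median of 569, 580 and 319 UMIs. The members summed to 6667 CPM on day 4 (6274 to 7078), 9122 CPM on day 7 (8589 to 9680) and 7582 CPM on day 14 (7104 to 8082) in them, from 1072, 1092 and 939 UMIs, beside 7177, 8258 and 7813 CPM in the barcodes kept.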

How the results depend on the processing

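No paired analysis was possible because there is 1 library per day. For the same reason no replicate could be left out, and the library limits every ratio. Of 208 counts of members recomputed, 164 stayed within 1.5 times and 44 moved. Of 28 log2 ratios past 2-fold, recomputed 388 times, 384 kept their sign and 326 were still past 2-fold. The 28 include Igfbp2 in differentiating Leydig-like against ECM myofibroblast-like cells, which rests on 0 UMIs. The causes were not tested. The settings that sum barcodes, leave out high Scrublet scores or leave out each member's richest cell were chosen after seeing the data. Igf1 (day 14 against 4) ranged from -1.40 to -1.21, Igf1r from -1.56 to -1.03, Igf2 from 0.78 to 1.79, Igfbp3 from -2.86 to -1.54 and Igfbp5 from 2.24 to 3.59 on the log2 scale.

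For day 7 against 4, 2 members were lower at 1.5-fold. For day 14 against 7, 1 was higher under the stricter filter (800 genes, 5% mitochondrial UMIs) or without the 5% deepest cells and 0 with a pseudocount of 10 CPM, and 1 was lower with equal weights, thinning, the median shift or a pseudocount of 10, 0 without the deepest cells and 4 at 1.5-fold. For day 14 against 4, 1 was higher with a pseudocount of 10. For differentiating Leydig-like against ECM myofibroblast-like cells, 2 were lower after thinning and 0 with a pseudocount of 10 or with 10 or 30 principal components. For proliferating progenitor-like against ECM myofibroblast-like cells, 1 was higher with a pseudocount of 10, with 10 or 30 components or with barcodes summed, and 0 were lower with equal weights, thinning or a pseudocount of 10. For proliferating progenitor-like against differentiating myofibroblast-like cells, 1 was higher without the 6% highest Scrublet scores or the deepest cells, with equal weights, thinning, a pseudocount of 10, resolution 1.2 or 10 components, 4 with barcodes summed and 0 without the richest cells. For Leydig-like against differentiating Leydig-like cells, 1 (Igfbp2) was higher under the stricter filter, with equal weights, without the deepest or richest cells, with the median shift, at 1.5-fold or with 10 components, and 3 were lower with equal weights, thinning, 10 components or classes from the highest list score, 2 with a pseudocount of 10 and 8 at 1.5-fold. Igfbp2 in differentiating Leydig-like against ECM myofibroblast-like cells was -2.92 from 0 UMIs and the 1 CPM added, which gives no direction. It was 2.49 and 3.55 with 10 and 30 components. Igfbp2 in proliferating progenitor-like against ECM myofibroblast-like cells turned from -1.40 to 0.67 with equal weights. Igfbp5 in proliferating progenitor-like against differentiating myofibroblast-like cells turned from 1.32 to -0.29 without the deepest cells.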
